A study of Mus musculus with 46 samples.

Results

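The phase II conjugation enzymes of mouse liver were followed across 4 groups of the Myc liver tumour model: the UDP-glucuronosyltransferases (UGT), the cytosolic sulfotransferases (SULT) and the glutathione S-transferases (GST). Members were the rows of the expression table whose symbol begins with Ugt1, Ugt2 or Ugt3, with Sult1 to Sult5 and a letter, or with Gst, 1 letter and a digit. The rule gave 57 of the 21671 genes, of which 19 were UGT, 17 SULT and 21 GST genes. All animals were of the FVB strain. Myc-off tumours (8 libraries, 3 animal IDs) carried tet-Myc/LAPtTA and were taken 16 h after doxycycline in the food had switched the transgene off. MycVD tumours (11 libraries, 10 IDs) carried tet-MycVD/LAPtTA, whose Myc holds the V394D substitution, with expression on. Myc tumours (16 libraries, 7 IDs) carried tet-Myc/LAPtTA with expression on, and control livers (11 libraries, 11 IDs) were labelled normal liver. In the tumour groups the transgene had been induced in utero through the liver-specific LAP-tTA driver. The labels give no age, no sex and no genotype of the control animals. Tumours that share an ID number were averaged, and each ID was counted as an animal, although no label says so.

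Phase II enzymes attach a polar group to bilirubin, steroids, bile acids, hormones, drugs and carcinogens, so that the product can leave the cell in bile or urine. UGTs transfer glucuronic acid from UDP-glucuronate in the endoplasmic reticulum, SULTs transfer sulfate from PAPS in the cytosol, and GSTs join glutathione to electrophiles. Hepatocytes are their main site in the body, and several of them differ between male and female mouse liver.

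Levels are exonic RPKM (eRPKM), read counts scaled to gene length and library size, as deposited. Reads per library, recovered from the values, ran from 3.25 M to 12.65 M, so a member at 1 eRPKM rested on few reads. Differences were tested with limma on log2(eRPKM + 0.5) over all 14566 genes that reached 1 eRPKM in at least 3 IDs, with Benjamini-Hochberg adjustment, and a gene was called at an adjusted p under 0.05. Such differences understate the change of low genes. In 8 libraries, of which 5 were Myc tumours, 2 MycVD tumours and 1 a control liver, Gapdh was under 30 eRPKM and stood apart from the rest. Every ID number of the MycVD group lies above those of the Myc group and every Myc-off number above all others, while control numbers span those of the Myc and MycVD groups. The labels do not say what the numbers follow. The Myc row was at 4.16 to 9.11 eRPKM in Myc-off tumours, 2.67 to 9.86 in MycVD tumours, 6.27 to 10.9 in Myc tumours and 1.46 to 18.2 in control livers, so it does not check the labels. The median of all genes lay at 0.28 (log2) for Myc tumours against control livers and at 0.22 for MycVD tumours, and median-ratio scaling moved these medians to 0.05 and 0.04. With it the share of higher calls among all calls was 52.1% in place of 62.9% for Myc tumours, 51.6% in place of 61.3% for MycVD tumours, 49.2% in place of 64.1% for Myc-off tumours against control livers, and 54.0% in place of 38.8% for MycVD against Myc tumours. The hepatocyte markers summed to 1559 to 1660 eRPKM in Myc-off tumours, 1010 to 1469 in MycVD tumours, 811 to 1229 in Myc tumours and 1312 to 2340 in control livers. All 11 that were measured were lower in Myc tumours than in control livers. In bulk tissue, fewer cells of a type and less RNA per cell cannot be told apart.

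All 3 families were lower in tumours with the transgene on than in control livers, and the UGTs were the lowest relative to control. The 19 UGT genes summed to 285 ± 74.4 eRPKM in Myc-off tumours, 151 ± 65.8 in MycVD tumours, 127 ± 18.1 in Myc tumours and 1119 ± 160.1 in control livers (SD over IDs, n = 3, 10, 7 and 11). This put Myc-off tumours at 25.5% and Myc tumours at 11.4% of the control sum. The 17 SULT genes summed to 208.5 ± 59.5 eRPKM in Myc-off tumours, 61.5 ± 20.3 in MycVD tumours, 77.6 ± 16.2 in Myc tumours and 354 ± 159.7 in control livers, which is 58.9% of the control sum in Myc-off tumours and 21.9% in Myc tumours. The 21 GST genes summed to 739 ± 17.7 eRPKM in Myc-off tumours, 555 ± 59.0 in MycVD tumours, 457 ± 54.8 in Myc tumours and 1152 ± 134.3 in control livers, or 64.1% of the control sum in Myc-off tumours and 39.6% in Myc tumours. No test was made of the differences between families.

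**Figure D1:**
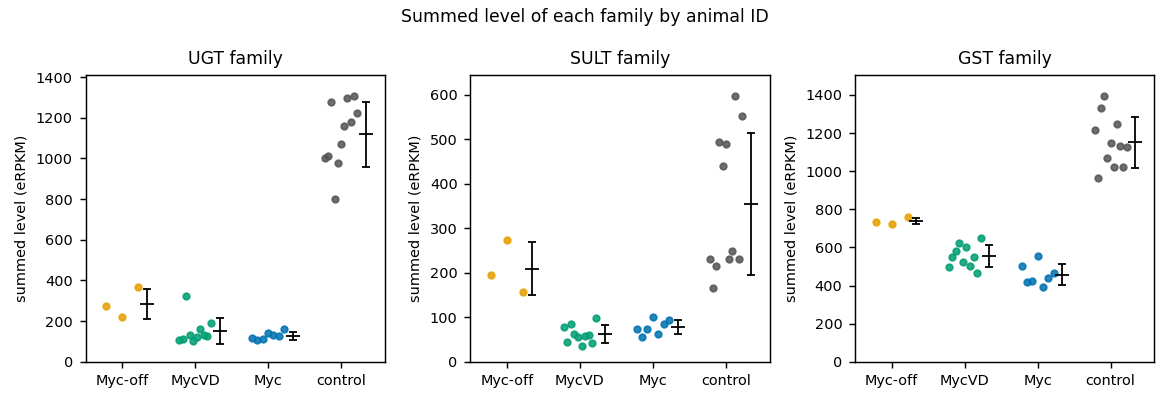
Summed level of the UGT, SULT and GST genes in eRPKM (vertical axes, from 0) by group (horizontal axes). Each point is 1 animal ID, and the black bar with whiskers is the mean ± SD. The tumour groups lie below the control livers for UGT and GST, and the SULT sums of the control livers fall into a low and a high set.

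Of the 57 members, 49 passed the filter on low values, namely 17 UGT, 13 SULT and 19 GST genes. The other 8 (Ugt2a1, Ugt2a2, Sult1c1, Sult1e1, Sult2b1, Sult4a1, Gsto2 and Gstt4) were not tested, and the highest ID mean among them was 4.39 eRPKM, for Sult4a1 in a Myc-off tumour. Another 6 members (Ugt2b37, Ugt2b38, Sult2a4, Sult2a5, Sult2a7 and Sult3a1) reached 1 eRPKM in fewer than 3 tumour IDs and so passed only through the control livers, where they are high. They had to be lower in tumours, and counts against control livers are therefore given over the other 43. In Myc tumours against control livers, 34 of these 43 were called lower, where 29.7% of all genes tested were, and 1 was called higher, where 50.4% of all genes were. The lower calls took in 15 of 15 UGTs, 4 of 9 SULTs and 15 of 19 GSTs, and the median log2 difference was -3.01 for UGTs, -0.81 for SULTs and -1.33 for GSTs. In 29 of the 43, or 67.4%, every Myc tumour ID lay below every control ID, as did 18.7% of all genes tested. In MycVD tumours against control livers, 36 of the 43 were called lower (31.1% of all genes) and 2 higher (49.2% of all genes), with medians of -3.07 for UGTs, -1.57 for SULTs and -1.08 for GSTs. Both comparisons use the same control livers.

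**Figure D2:**
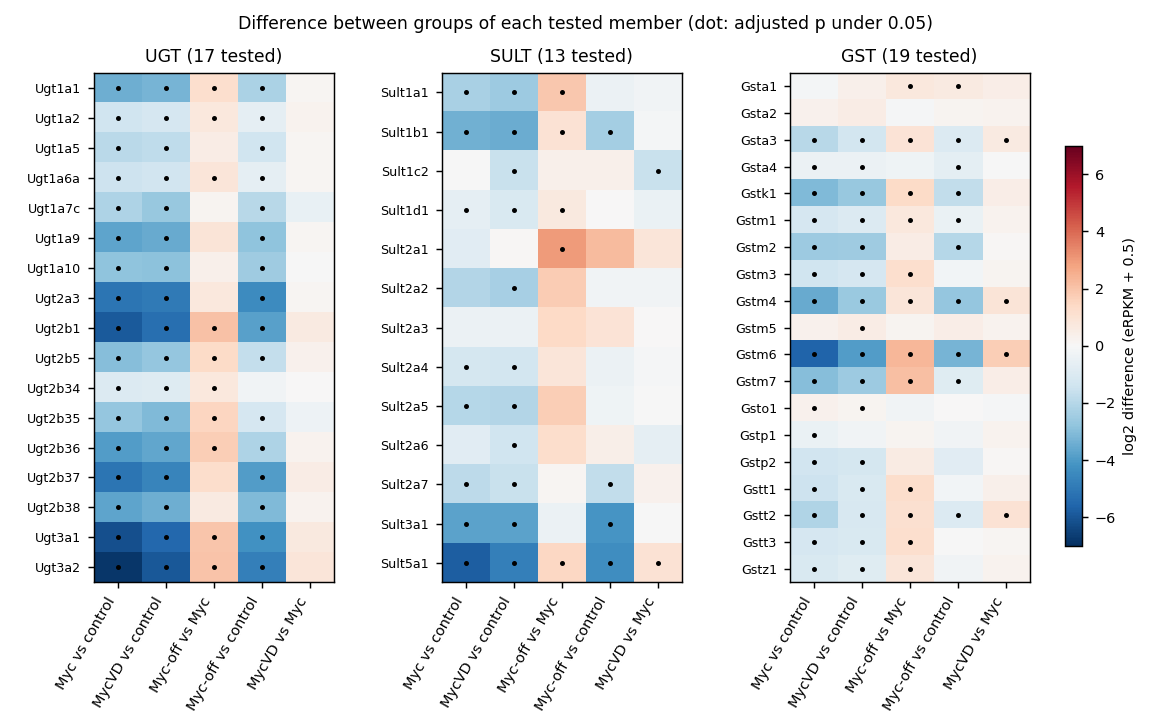
Log2 difference of eRPKM + 0.5 (colour, blue lower and red higher in the group named first) for each of the 49 tested members (rows) in 5 comparisons (columns). A dot marks an adjusted p under 0.05. The UGT panel is blue and dotted in every row of the first 2 columns, where Ugt2b37 and Ugt2b38 passed the filter only through the control livers, and 27 members carry a dot in the third column, all of them red.

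The largest differences among the UGTs were those of the Ugt3a genes, whose human counterparts use sugars other than glucuronic acid. Ugt3a2 was at 0, 0.277 and 1.71 eRPKM in Myc tumours (lowest, median and highest ID), against 79.2, 93.9 and 111 in control livers. This is a log2 difference of -6.79 ± 0.41, adjusted p = 1.22e-15, where ± gives the SE here and below. Ugt3a1 was at 0.238, 0.391 and 1.18 eRPKM in Myc tumours, against 57.4, 71.8 and 87.0 in control livers, a difference of -6.16 ± 0.32, adjusted p = 2.42e-17. For both genes the highest tumour lay far below the lowest control liver.

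The Ugt2b enzymes, which conjugate steroids, bile acids and drugs, spanned a wide range. Ugt2b1, which held the largest share of the UGT sum in control livers at 14.5%, was at 1.22, 1.71 and 4.50 eRPKM in Myc tumours, against 100.2, 170.1 and 212 in control livers. The log2 difference was -5.87 ± 0.42, adjusted p = 7.04e-14. Ugt2b36 was at 5.86, 7.92 and 15.8 eRPKM in Myc tumours and 114, 137 and 164 in control livers (log2 difference -3.88 ± 0.32, adjusted p = 1.35e-12). Ugt2b34 was the least lowered UGT, at 50.4, 53.4 and 57.5 eRPKM in Myc tumours against 75.0, 108 and 128 in control livers (log2 difference -0.98 ± 0.10, adjusted p = 2.30e-10). It made up 42.7% of the UGT sum in Myc tumours and 9.57% in control livers. Ugt2a3, a UGT of bile acids in humans, was at 1.52, 2.74 and 6.23 eRPKM in Myc tumours and 95.7, 128 and 143 in control livers (log2 difference -5.09 ± 0.41, adjusted p = 8.56e-13). Ugt2b5 and Ugt2b35 were also lower, with log2 differences of -3.01 ± 0.23, adjusted p = 3.08e-13 for Ugt2b5 and -2.71 ± 0.24, adjusted p = 1.49e-11 for Ugt2b35. Ugt2b5 shares 41.7% and Ugt2b38 37.4% of its stretches of 50 bases with another gene, and the sources used here do not say how such reads were divided.

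The Ugt1a enzymes come from 1 locus on mouse chromosome 1, where each has its own first exon and all share the remaining exons. The passage from the own part (lower case) to the common part (capitals) shows why their counts are not independent. Each sequence is from the GENCODE M21 transcript, 5′ to 3′.
Ugt1a1: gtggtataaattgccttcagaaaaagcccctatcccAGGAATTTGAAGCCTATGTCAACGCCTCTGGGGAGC
Ugt1a2: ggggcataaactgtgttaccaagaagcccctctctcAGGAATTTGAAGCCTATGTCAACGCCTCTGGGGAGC
Ugt1a5: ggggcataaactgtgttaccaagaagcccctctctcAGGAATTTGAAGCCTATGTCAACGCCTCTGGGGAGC
Ugt1a9: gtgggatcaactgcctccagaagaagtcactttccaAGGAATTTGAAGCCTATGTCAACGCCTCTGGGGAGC
The run identical to Ugt1a1 was 1313 or 1314 bases long, and the rows of Ugt1a2 and Ugt1a5 also agree in the stretch before it. Of the 7 transcripts, between 58.2% and 100% of all stretches of 50 bases occurred in another gene. Levels of single Ugt1a genes are therefore uncertain.

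All 7 Ugt1a genes were lower in Myc tumours, by 1.38 to 3.67 on the log2 scale. Ugt1a1, the enzyme that conjugates bilirubin, was at 2.54, 3.14 and 5.02 eRPKM in Myc tumours and 32.8, 40.8 and 48.2 in control livers (log2 difference -3.39 ± 0.20, adjusted p = 8.36e-16). Ugt1a9, which conjugates phenols, was at 2.15, 3.71 and 6.44 eRPKM in Myc tumours and 36.7, 50.7 and 58.8 in control livers (log2 difference -3.67 ± 0.30, adjusted p = 1.46e-12). Ugt1a6a, which acts on small planar phenols, was at 5.29, 6.84 and 8.98 eRPKM in Myc tumours and 9.97, 22.4 and 24.2 in control livers (log2 difference -1.46 ± 0.16, adjusted p = 1.04e-09). In these 3 genes no Myc tumour ID overlapped the control livers.

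Among the SULTs, Sult5a1 showed the largest difference, at 0.147, 0.227 and 0.433 eRPKM in Myc tumours and 21.7, 41.5 and 61.6 in control livers (log2 difference -5.79 ± 0.29, adjusted p = 1.03e-17). Sult1a1, the phenol sulfotransferase with the highest SULT level in control livers, was at 16.6, 25 and 38.2 eRPKM in Myc tumours and 78.0, 122 and 167 in control livers (log2 difference -2.30 ± 0.22, adjusted p = 6.34e-11). Sult1b1, which sulfates thyroid hormones, was at 0.930, 1.11 and 1.98 eRPKM in Myc tumours and 14.4, 19.1 and 23.8 in control livers (log2 difference -3.38 ± 0.16, adjusted p = 1.87e-18). These 3 genes did not overlap between the groups. Sult1d1, an enzyme of catecholamines in the mouse, overlapped, at 25.5, 30.9 and 40.7 eRPKM in Myc tumours and 24.0, 47.9 and 77.0 in control livers (log2 difference -0.63 ± 0.20, adjusted p = 0.00491). With the recovered depth of the libraries in the fit this call was lost (adjusted p = 0.271). Sult1c2 did not pass the test: it was at 11.5, 14.9 and 17.0 eRPKM in Myc tumours and 9.51, 15.3 and 26.5 in control livers, with a log2 difference of -0.0032 ± 0.41, adjusted p = 0.9949. Sult1d1 made up 40.7% of the SULT sum in Myc tumours and 15.2% in control livers.

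By summed level the GSTs were the least lowered family in Myc tumours, at 39.6% of the control sum against 21.9% for SULTs. By the median log2 difference of the 43 members the SULTs were less lowered, at -0.81 against -1.33 for GSTs. Members that were not called lower occurred in both families. Of the mu class, Gstm6 was at 0.0747, 0.410 and 0.917 eRPKM in Myc tumours and 22, 45.8 and 65.0 in control livers (log2 difference -5.60 ± 0.30, adjusted p = 5.42e-17). Gstm4 was at 1.92, 2.70 and 3.38 eRPKM in Myc tumours and 24.6, 37.6 and 59.9 in control livers (log2 difference -3.52 ± 0.19, adjusted p = 3.67e-17). Gstm1, the mu-class gene with the highest level, was at 49.0, 54.9 and 64.0 eRPKM in Myc tumours and 99.2, 127 and 158 in control livers (log2 difference -1.19 ± 0.08, adjusted p = 2.46e-14). In all 3 the Myc tumour IDs lay below every control liver. Gstm5 was the mu-class gene that did not pass, at 20.9, 26.4 and 32.5 eRPKM in Myc tumours and 14, 21.2 and 79.0 in control livers (log2 difference 0.28 ± 0.21, adjusted p = 0.227), and its highest control value came from ID125322, the control liver with low Gapdh.

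In the other classes, Gsta3, which in the mouse detoxifies the epoxide of aflatoxin, was at 28.8, 36.4 and 49.6 eRPKM in Myc tumours and 93.7, 155 and 165 in control livers (log2 difference -1.92 ± 0.13, adjusted p = 6.76e-15). Gstk1, the kappa-class enzyme of mitochondria and peroxisomes, was at 6.17, 12.8 and 18.3 eRPKM in Myc tumours and 77.2, 105 and 124 in control livers (log2 difference -3.09 ± 0.22, adjusted p = 5.45e-14). Gstz1, which isomerises maleylacetoacetate in tyrosine breakdown, was at 54.6, 61.4 and 71.5 eRPKM in Myc tumours and 112, 135 and 153 in control livers (log2 difference -1.08 ± 0.09, adjusted p = 6.03e-13). The groups did not overlap in these 3 genes. Gsta4, which acts on 4-hydroxynonenal, overlapped, at 40.3, 43.6 and 61.9 eRPKM in Myc tumours and 41.9, 59.5 and 97.9 in control livers (log2 difference -0.40 ± 0.14, adjusted p = 0.00756), and its call was lost with quantile normalisation (adjusted p = 0.186) and with depth in the fit (adjusted p = 0.1001). Gsta1 and Gsta2 did not pass, with log2 differences of -0.12 ± 0.19, adjusted p = 0.576 and 0.28 ± 0.27, adjusted p = 0.328, and 89.7% and 64.2% of their stretches of 50 bases lie in another gene. Gsto1, a dehydroascorbate reductase, was the only member called higher, at 58.8, 66.8 and 84.0 eRPKM in Myc tumours and 46.1, 53.8 and 67.8 in control livers. Its log2 difference of 0.28 ± 0.10, adjusted p = 0.00737 equals the median of all genes, and with median-ratio scaling it was 0.03 (adjusted p = 0.784). Gsto1 was the leading GST of Myc tumours, with 14.8% of the family sum. Its mean was 67.6 eRPKM in Myc tumours and 55.3 in control livers. The leading GST of control livers was Gsta3, with a mean of 36.8 eRPKM in Myc tumours and 140 in control livers.

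**Figure D3:**
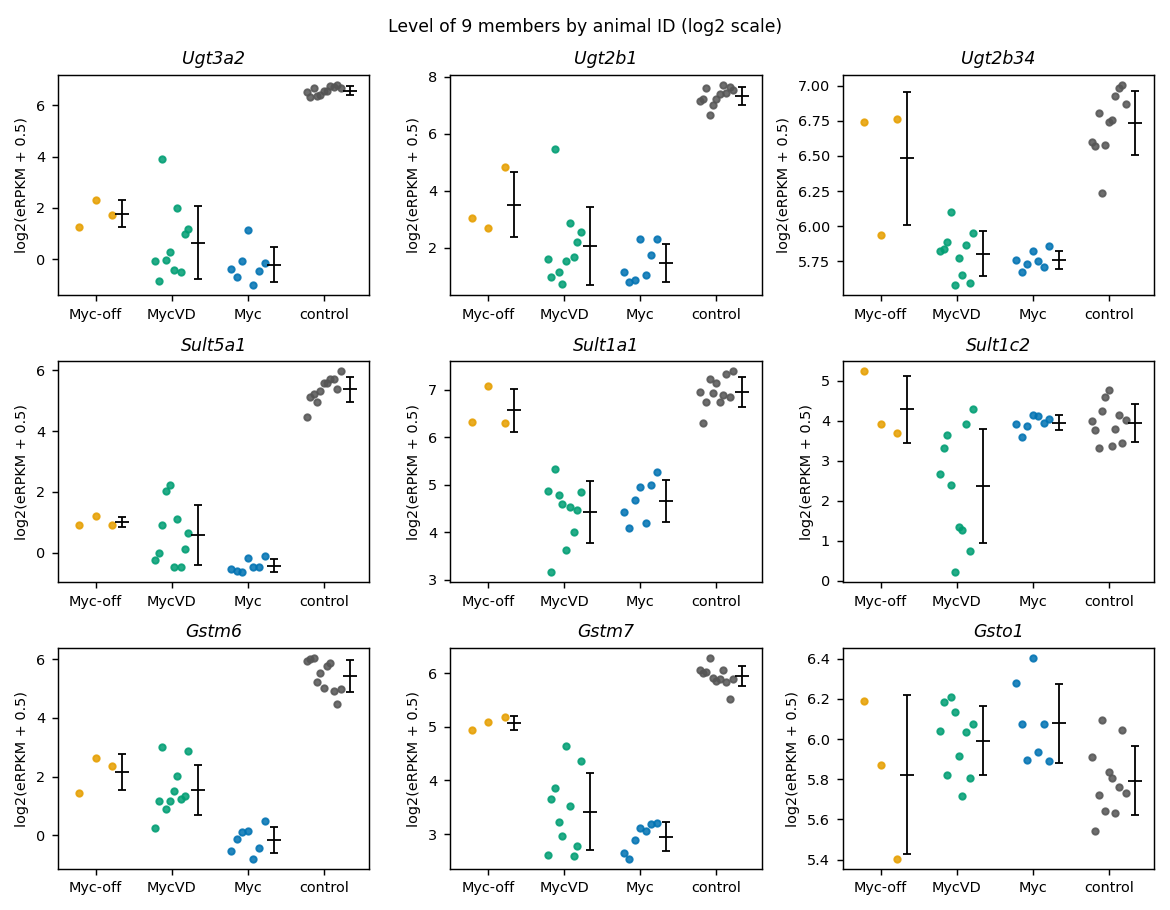
Level of 9 members as log2(eRPKM + 0.5) by group; each point is 1 animal ID and the black bar with whiskers is the mean ± SD. Each panel has its own vertical range. Ugt3a2, Ugt2b1, Sult5a1 and Gstm6 show all tumour groups below the control livers, Ugt2b34 and Sult1a1 show Myc-off tumours within or near the control range, and Gsto1 overlaps in all groups.

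Abundant members may be compressed. The highest values of a library lay at 1461 to 2182 reads per kb whatever its depth, and Ugt2b1 reached 1373, Gsta3 1233, Gstt1 1194 and Sult1a1 1194 reads per kb. With a correction for such a ceiling the log2 difference between Myc tumours and control livers was -6.43 for Ugt2b1 and -2.23 for Gsta3, and among all called members only Sult1d1, in Myc-off against Myc tumours, lost its call (adjusted p = 0.0543).

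The comparison of Myc-off with Myc tumours sets tumours taken 16 h after transgene shutdown beside tumours of other IDs with the transgene on. Doxycycline in the food for 16 h and the higher ID numbers go with the Myc-off group. Their effects cannot be told apart from that of the shutdown. In Myc-off tumours 27 members were called higher than in Myc tumours, where 22.8% of all genes tested were, and 0 were called lower, where 28.0% of all genes were. The 27 comprised 10 UGTs, 5 SULTs and 12 GSTs, and the median log2 differences were 0.88 for UGTs, 1.22 for SULTs and 0.82 for GSTs, against 0.00 over all genes. In 25 of the 49 members, or 51.0%, all 3 Myc-off IDs lay above all 7 Myc IDs, as did 19.6% of all genes tested. By limma, at an unadjusted p under 0.05, 0 members were lower, and Gsto1 was called lower under 6 other settings, with log2 differences of -0.30 to -0.46.

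Gstm7 was at 30.05, 33.6 and 35.8 eRPKM in Myc-off ID150584, ID151964 and ID153344, given in that sequence throughout, against 5.31, 7.86 and 8.72 in Myc tumours (log2 difference 2.12 ± 0.30, adjusted p = 5.14e-07). Gstm6 was at 2.23, 5.71 and 4.68 eRPKM in Myc-off IDs, against 0.0747, 0.410 and 0.917 in Myc tumours (log2 difference 2.32 ± 0.43, adjusted p = 3.94e-05). Sult1a1 was at 79.4, 135 and 78.3 eRPKM in Myc-off IDs and 16.6, 25 and 38.2 in Myc tumours (log2 difference 1.91 ± 0.32, adjusted p = 7.90e-06). The ID means of these genes did not overlap between the groups, but single libraries of Sult1a1 and Gstm6 did. The highest Myc library held Sult1a1 at 63.0 eRPKM and the lowest Myc-off library at 56.8. For Gstm6 these values were 1.75 and 1.55 eRPKM. Within Myc ID125324 Sult1a1 ranged over 2.12 on the log2 scale, against 0.99 between the means of the Myc IDs. Ugt2b1 was at 7.70, 5.95 and 27.8 eRPKM in Myc-off IDs and 1.22, 1.71 and 4.50 in Myc tumours (log2 difference 2.06 ± 0.60, adjusted p = 0.00508). Without Myc-off ID153344, the highest of the 3, its difference was 1.41 and the call was lost (adjusted p = 0.0919). Ugt3a2 was at 1.90, 4.45 and 2.84 eRPKM in Myc-off IDs and 0, 0.277 and 1.71 in Myc tumours (log2 difference 1.99 ± 0.59, adjusted p = 0.00558). Ugt3a1 was at 3.39, 2.77 and 4.05 eRPKM in Myc-off IDs and 0.238, 0.391 and 1.18 in Myc tumours (log2 difference 1.94 ± 0.46, adjusted p = 7.00e-04).

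The largest difference among the called members, that of Sult2a1, was uneven between the IDs. Sult2a1, which sulfates bile acids and dehydroepiandrosterone, was at 2.95, 41.7 and 8.73 eRPKM in Myc-off ID150584, ID151964 and ID153344, against 0, 0.673 and 3.02 in Myc tumours (log2 difference 2.99 ± 1.24, adjusted p = 0.0439). Without ID150584, the lowest, the difference was 3.83 (adjusted p = 0.0273). Without ID151964 it was 2.03 and no longer called (adjusted p = 0.27), and it was also lost with a pseudocount of 0.1 (adjusted p = 0.0857), with no filter (adjusted p = 0.0729), with depth in the fit (adjusted p = 0.138) and without ID153344 (adjusted p = 0.0844). Sult2a2 was at 0.450, 13.2 and 2.42 and Sult2a5 at 0.185, 9.72 and 0.736 eRPKM in the same Myc-off IDs, and neither passed the test. Sult4a1, known from brain and not tested, was in these Myc-off IDs at 0.0512, 4.39 and 0.138 eRPKM, with 8.5 eRPKM in 1 of the 2 libraries of ID151964 and 0.283 in the other. Sult1d1 was called higher (log2 difference 0.68 ± 0.28, adjusted p = 0.0447) but lost the call under 7 of 19 other settings, and Gstm3 (log2 difference 1.17 ± 0.47, adjusted p = 0.0397) under 5.

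In tumours taken 16 h after shutdown most UGTs were below control livers. Against control livers, 25 of the 43 members were lower in Myc-off tumours (20.9% of all genes tested), namely 14 of 15 UGTs, 2 of 9 SULTs and 9 of 19 GSTs, and 1 was higher (37.3% of all genes). The median log2 differences were -2.17 for UGTs, 0.05 for SULTs and -0.46 for GSTs. The SULT median pools control livers that fell into a low and a high set for these genes, as described below. It therefore does not show that SULTs were back at control levels. The Myc-off against Myc and the Myc-off against control comparisons share the Myc-off tumours. The log2 difference from control was -4.80 ± 0.56, adjusted p = 1.41e-08 for Ugt3a2 and -4.38 ± 0.55, adjusted p = 5.80e-08 for Ugt2a3. It was -4.36 ± 0.39, adjusted p = 7.70e-11 for Sult5a1, and -3.28 ± 0.41, adjusted p = 4.47e-08 for Gstm6. Ugt2b1 differed by -3.81 ± 0.57, adjusted p = 1.23e-06, and by -4.47 without Myc-off ID153344. Ugt2b34 did not pass, at 107, 60.8 and 108 eRPKM in Myc-off IDs and 75.0, 108 and 128 in control livers (log2 difference -0.25 ± 0.13, adjusted p = 0.109), nor did Sult1a1 (-0.39 ± 0.30, adjusted p = 0.271) and Gstt1 (-0.19 ± 0.17, adjusted p = 0.341), or Gstt3 (-0.04 ± 0.31, adjusted p = 0.914) and Gstz1 (-0.25 ± 0.12, adjusted p = 0.0662). With only 3 Myc-off IDs, a difference that missed the threshold does not show that levels were equal to control. The higher call was Gsta1, at 1.27, 2.31 and 1.59 eRPKM in Myc-off IDs and 0.312, 0.890 and 1.63 in control livers (log2 difference 0.64 ± 0.26, adjusted p = 0.0371), which turned to -0.05 with quantile normalisation (adjusted p = 0.885).

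**Figure D4:**
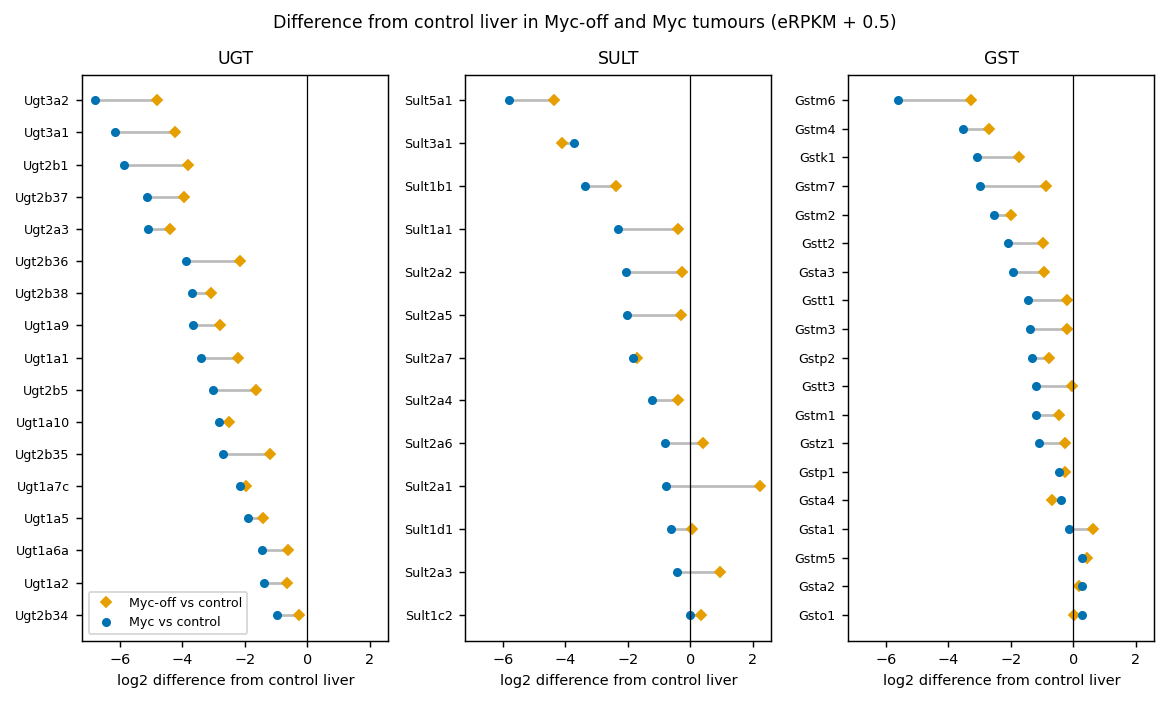
Log2 difference from control liver (horizontal axes, eRPKM + 0.5) of each tested member (rows, ordered by the difference in Myc tumours), as diamonds for Myc-off tumours and circles for Myc tumours. Both use the same control livers. All UGT symbols lie left of 0, and diamonds of Ugt2b34, Sult1a1, Sult1d1, Gstt1, Gstt3 and Gstz1 lie within 0.4 of it.

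Markers of some other cells differed as well. Of 8 tested cholangiocyte markers 7 were higher in Myc-off than in Myc tumours, and the list summed to 55.3 to 213 eRPKM in Myc-off tumours, against 20.7 to 46.7 in Myc tumours. Krt7 was at 8.66 to 31.9 eRPKM in Myc-off IDs, against 0.169 to 2.58 in Myc tumours, and Cldn4 at 3.74 to 60.8 in Myc-off IDs, against 0.0492 to 5.54 in Myc tumours. Of 11 hepatocyte markers 8 were higher in Myc-off than in Myc tumours, as were 4 of 10 endothelial and 1 of 5 lymphocyte markers. Of all genes tested 22.8% were. Among the Kupffer and macrophage, the stellate cell and fibroblast, and the erythroid markers, 0 of 8 in each list were called. The part of these cell types in the results of the conjugation enzymes was not tested. In Myc tumours against control livers 8 of 10 endothelial markers were lower, with sums of 61.4 to 94.1 eRPKM in Myc tumours and 200.2 to 359 in control livers. All 8 tested erythroid markers were higher, with sums of 50.9 to 276 eRPKM in Myc tumours and 20.3 to 40.2 in control livers. Their part was likewise not tested.

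The V394D substitution, a change in Myc that impairs its contact with the partner protein Miz1, is what the labels give as the difference between MycVD and Myc tumours. The ID numbers of the groups do not overlap, and recovered depth had a median of 7.81 M in MycVD and 9.66 M in Myc libraries, whose part in these results was not tested apart from the fits with depth. In MycVD tumours 5 members were called higher than in Myc tumours (6.14% of all genes tested) and 1 lower (9.69% of all genes), which is 10.2% and 2.04% of the 49 tested. Of the UGTs 0 of 17 were called by limma, and 3 had an unadjusted p under 0.05.

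Gstm6 was at 0.676, 1.92 and 7.61 eRPKM in MycVD tumours and 0.0747, 0.410 and 0.917 in Myc tumours (log2 difference 1.71 ± 0.31, adjusted p = 2.55e-04). Gstt2, a theta-class enzyme, was at 17.4, 21.6 and 31.4 eRPKM in MycVD tumours and 6.55, 12.2 and 14.9 in Myc tumours (log2 difference 0.99 ± 0.14, adjusted p = 1.30e-05), with every MycVD ID above every Myc ID. Gsta3 was at 44.9, 56.3 and 75.6 eRPKM in MycVD tumours and 28.8, 36.4 and 49.6 in Myc tumours (log2 difference 0.64 ± 0.13, adjusted p = 8.50e-04), and Gstm4 at 3.35, 4.74 and 10.4 eRPKM in MycVD tumours and 1.92, 2.70 and 3.38 in Myc tumours (log2 difference 0.90 ± 0.19, adjusted p = 0.00148). Sult5a1 was at 0.221, 0.839 and 4.18 eRPKM in MycVD tumours and 0.147, 0.227 and 0.433 in Myc tumours (log2 difference 1.01 ± 0.30, adjusted p = 0.0196), a call lost with depth in the fit (adjusted p = 0.287). Apart from Gstt2 these genes overlapped between the groups. The member called lower was Sult1c2, at 0.662, 5.24 and 19.0 eRPKM in MycVD tumours and 11.5, 14.9 and 17.0 in Myc tumours (log2 difference -1.57 ± 0.42, adjusted p = 0.011), which was lost with depth in the fit (adjusted p = 0.122). Without the 8 libraries with low Gapdh, 11 members were called higher and 2 lower in MycVD tumours, where 10.9% of all genes tested were higher and 16.5% lower. For Gstm6 the log2 difference from control was -3.89 ± 0.27, adjusted p = 3.39e-14, in MycVD tumours. In Myc tumours it was -5.60 ± 0.30, adjusted p = 5.42e-17. Both use the same control livers in 1 fit, so their gap restates the MycVD against Myc difference of Gstm6 and is no further result. Of the 2 members called higher in MycVD tumours than in control livers, Gstm5 was at 23.2, 31.9 and 49.5 eRPKM in MycVD tumours (log2 difference 0.55 ± 0.19, adjusted p = 0.01) and Gsto1 at 52.1, 65.2 and 73.4 (log2 difference 0.20 ± 0.09, adjusted p = 0.0344). Both calls were lost with median-ratio scaling, at adjusted p = 0.087 and 0.986.

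MycVD ID134660 stood out among the MycVD tumours by its UGT sum, which was 323 eRPKM, against a median of 128 in the group. Ugt2b1 was at 44.0 eRPKM in ID134660 and at 1.14 to 6.85 in the other 9 MycVD IDs. ID134660 was the highest of the 10 MycVD IDs in 17 of the 45 members that reached 1 eRPKM in a MycVD tumour. Such counts were not particular to it. By the same measure Myc ID126948 was the highest Myc ID in 17 of 42 members. Myc-off ID151964 was the highest Myc-off ID in 20 of 48. Without ID134660, MycVD tumours against control livers gave 42 lower and 2 higher of the 49 tested members, as with it. Of all 14558 genes tested then, 4549 were lower and 7106 higher. The 49 include the 6 members that passed the filter only through the control livers. Against Myc tumours 6 members were higher and 1 lower, where 986 of all genes were higher and 1588 lower.

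The control livers fell into 2 sets for the sulfotransferases. The labels give no sex, but Xist, the RNA of the inactive X chromosome, lay above the sum of 4 Y-linked genes in 16 IDs and below it in the other 15. Among the control livers 5 IDs had Xist at 51.4 to 123.5 eRPKM and 6 IDs had the Y-linked genes at 99.5 to 128 eRPKM. The 17 SULT genes summed to 440 to 597 eRPKM in the 5 Xist control livers and 165 to 248 eRPKM in the 6 Y-linked ones. In Myc-off tumours the SULT sums were 195 and 273 eRPKM in the Xist IDs ID150584 and ID151964. The sum was 157 eRPKM in the Y-linked ID153344. Each of these lay below every control liver of its own set. The UGT sums overlapped, at 801 to 1222 eRPKM in the Xist and 1003 to 1308 in the Y-linked control livers. So did the GST sums, at 1069 to 1395 eRPKM in the Xist and 966 to 1332 in the Y-linked control livers. These values are a description with no test, since the sets were drawn from the data.

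Sult3a1, a sulfotransferase of amines in the mouse, was at 107 to 160.0 eRPKM in the 5 Xist control livers and 0 to 10.5 in the 6 Y-linked ones, where the highest came from ID125319. Sult2a2 was at 29.3 to 49.7 eRPKM in Xist and 0 to 1.01 in Y-linked control livers, and Sult2a5 at 9.93 to 22.8 eRPKM in Xist and 0 to 0.17 in Y-linked ones. Sult2a1 was at 9.04 to 27.1 eRPKM in Xist control livers and listed at 0 in all 6 Y-linked ones. In all, 11 members had every Xist control liver above every Y-linked one: Sult1c2, Sult1d1, Sult2a1 to Sult2a6, Sult3a1, Ugt1a1 and Gstt3. Ugt2b35 had them all below. These 12 are 24.5% of the 49 tested members, and 2.44% of all genes tested were split in this way. Sult2a1 to Sult2a6 share 7.35% (Sult2a6) to 62.1% (Sult2a2) of their stretches of 50 bases with another gene. Their levels may therefore not be independent, and the 12 are not 12 separate results. Sult2a4, Sult2a5 and Sult3a1 passed the filter only through the control livers. Gstp1 and Gstp2, known as higher in male mouse liver, overlapped: Gstp1 was at 31.4 to 46.8 eRPKM in Xist and 43.9 to 69.8 in Y-linked control livers. Without ID125322, the control liver with low Gapdh, the other 4 Xist control livers held Gstp1 at 31.4 to 39.0 eRPKM, below every Y-linked one. Gstp2 still overlapped without ID125322, as its highest Xist control liver lay above its lowest Y-linked one. Gstp1 and Gstp2 share 63.0% and 64.3% of their stretches of 50 bases with each other.

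Sult3a1, Sult2a2 and the other Sult2a genes were not split in MycVD or Myc tumours. Sult3a1 was listed at 0 in all 3 Myc-off IDs, at 0 to 0.565 eRPKM in the Xist and 0 to 1.56 in the Y-linked MycVD IDs, and at 0 to 2.26 in the Xist and 0 to 0.0244 in the Y-linked Myc IDs. Sult2a2 was at 0 to 2.91 eRPKM in Xist and 0 to 0.17 in Y-linked MycVD IDs, and at 0 to 2.46 in Xist and 0 to 0.48 in Y-linked Myc IDs. Over the members, 1 of 49 was split in MycVD tumours (3.54% of all genes) and 8 of 49 in Myc tumours (5.11% of all genes). The 8 in Myc tumours are 16.3% of the 49, and 7 of them had every Xist ID above every Y-linked one. In Myc tumours Gstt3 was split the other way, at 17.0 to 19.3 eRPKM in Xist IDs and 19.8 to 21.9 in Y-linked IDs. Control livers of both sets enter the differences from control. Sult2a1 (log2 difference -0.78 ± 0.87, adjusted p = 0.413) and Sult2a3 (-0.43 ± 0.53, adjusted p = 0.452) did not pass in Myc tumours. Sult1c2 was at 0.662 to 5.79 eRPKM in Xist and 4.70 to 19.0 in Y-linked MycVD IDs, and at 14.9 to 17.0 in Xist and 11.5 to 14.4 in Y-linked Myc IDs.

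**Figure D5:**
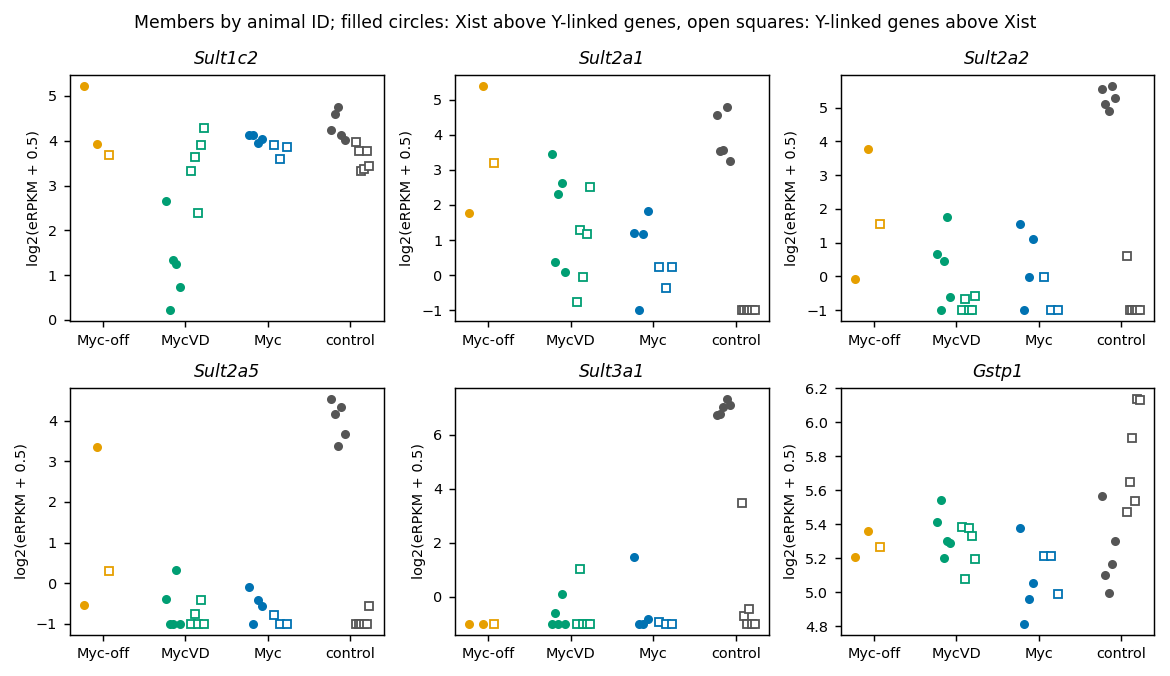
Level of 5 sulfotransferases and Gstp1 as log2(eRPKM + 0.5) by group and animal ID, with filled circles for IDs whose Xist lies above the Y-linked genes and open squares for the others. Each panel has its own vertical range. In control livers the circles of Sult1c2, Sult2a1, Sult2a2, Sult2a5 and Sult3a1 lie above all squares. In MycVD and Myc tumours both symbols overlap or lie near the floor of -1, except for Sult1c2 in Myc tumours. There its circles lie above all squares. Myc-off tumours hold only 3 IDs.

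Promoters were searched for motifs on both strands, from 250 bases before to 50 after the start, in RefSeq GRCm38.p6; 50 of the 57 members had a promoter there. The E-box CACGTG, to which Myc and Max bind, was in 0 of 50 members and 8.09% of 27025 genes. The antioxidant response element TGACNNNGC was in 3 of 50 (Gsta3, Gstm5 and Gstm7), or 6%, and in 14% of all genes. The HNF4 motif CAAAGTCCA was in 1 of 50, Sult1b1, and 0.555% of all genes. A match is a description of letters and not a binding site, and a missing match says only that the letters are not in this window. Hnf4a itself was lower in Myc tumours than in control livers, with a log2 difference of -0.73 ± 0.07, adjusted p = 2.59e-11.

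Other genes of conjugation were taken from lists. Of all genes tested, 29.7% were lower and 50.4% higher in Myc tumours than in control livers. In Myc-off against Myc tumours 22.8% were higher and 28.0% lower. Of 18 regulators of conjugating enzymes, 16 were lower and 2 higher in Myc tumours than in control livers, and in Myc-off against Myc tumours 10 were higher and 1 lower. Nr1i3, the constitutive androstane receptor that induces many UGTs and GSTs, was the most lowered (log2 difference -2.71 ± 0.24, adjusted p = 7.11e-12), followed by Ppara (-2.21 ± 0.11, adjusted p = 1.29e-17). Nfe2l2, which drives GST genes through the antioxidant response element, differed by -0.22 ± 0.08, adjusted p = 0.017. Of 19 tested other conjugating enzymes 14 were lower and 5 higher in Myc tumours. Glyat, which conjugates glycine, differed by -5.08 ± 0.34, adjusted p = 1.48e-14 and Mgst2, a microsomal GST, by 5.51 ± 0.22, adjusted p = 4.47e-20 (log2).

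Supply and export were mixed. Their counts in Myc tumours stand beside 29.7% lower and 50.4% higher of all genes tested, and several lie near these shares. Of 9 genes for UDP-glucuronate and PAPS, 4 were lower and 2 higher in Myc tumours than in control livers: Papss2, which makes PAPS, differed by -3.84 ± 0.22, adjusted p = 4.16e-16 and Ugdh, which makes UDP-glucuronate, by -0.74 ± 0.10, adjusted p = 1.61e-07 (log2). Papss2 was higher in Myc-off than in Myc tumours (2.21 ± 0.32, adjusted p = 9.45e-07). Of 14 tested genes of glutathione supply and recycling, 7 were lower and 3 higher, with Ggt1, which breaks down extracellular glutathione, at 6.53 ± 0.15, adjusted p = 2.24e-26 and Oplah, an oxoprolinase, at -3.17 ± 0.20, adjusted p = 3.09e-15. Of 11 conjugate exporters 6 were lower and 5 higher. Abcc2, the canalicular exporter of glucuronides, differed by -1.65 ± 0.11, adjusted p = 5.63e-15, and Abcb1b and Abcc1 were higher, by 4.07 ± 0.30, adjusted p = 1.16e-13 and 3.01 ± 0.31, adjusted p = 2.62e-10. Of 4 tested deconjugating enzymes 3 were lower and 1 was higher, Gusb, the beta-glucuronidase that removes glucuronic acid (1.14 ± 0.07, adjusted p = 4.42e-15).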

How the data were processed

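RNA was extracted from mouse liver or liver tumour tissue, depleted of ribosomal RNA and made into libraries with the TruSeq RNA kit v2, which does not mark strand, per the labels' protocols. Reads of overlapping antisense genes can therefore not be told apart. The authors deposited exonic RPKM values (eRPKM) for 21671 genes in 46 libraries. Per the submitters' processing notes, TopHat and TopHat2 version 2.0.8 were used and mm9 was the build. The sources used here do not give the counter, the annotation or the treatment of multiply mapped reads. Low values were whole multiples of 1 read, which gave the length of 19060 genes and each library's depth. Of the values above 0 of these genes, 100% were whole reads within 0.01. This is no check of the lengths, since each was chosen to make the values of its gene whole.

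Libraries of an ID were averaged, which left 31 IDs in 4 groups. Tests were made in R 4.3.3 with limma 3.58.1 (trend) on log2(eRPKM + 0.5), all groups in 1 fit, two-sided, with Benjamini-Hochberg adjustment over the 14566 genes that reached 1 eRPKM in 3 IDs or more; 7105 genes were left out. Nothing says that IDs are separate animals, so p-values measure the spread between these IDs. The closest pair of libraries of a group still differed by 3.33 times the sampling noise (chi-square per degree of freedom), so none was counted as a duplicate. Fits were tested on simulated data. Reference sequences are of another build than the table, so its genes were matched by symbol only. Members and gene lists were chosen with earlier results of these data known. Named members are, per family, the 3 with the highest level, the 2 largest rises and 2 largest falls called per comparison, known sex-dependent genes and copies that share sequence; others are named as examples or because they did not pass. Other settings tried were 2 pseudocounts, 2 filters, 2 scalings, the mean of log2 values, an ID block, depth or Xist as a covariate, array weights, a ceiling correction, and leaving out IDs or libraries. The results of 1 further promoter motif and 1 regulator are not reported here.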

Additional observations from a re-analysis of the deposited data

Results flagged for a closer look

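In 53 sets of IDs, each being 1 named member in 1 group, 2 held a value apart from the rest by Dixon's criterion, which chance gives in about 5% of sets. Sult3a1 was at 2.26 eRPKM in Myc tumour ID125324, against 0 to 0.0559 in the other 6 Myc IDs, and 1 of its 4 libraries held 8.37 eRPKM. Ugt2b1 was at 44.0 eRPKM in MycVD ID134660, against 1.14 to 6.85 in the other 9 MycVD IDs.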

How the results depend on the processing

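Of 148 called results of members, 122 kept direction and call under each other setting run: 112 of 134 with 19 settings, and 10 of 14 with 18, since some genes dropped out under the stricter filter. Counts here are over the 49 tested members, which include the 6 that passed the filter only through the control livers. The counts of lower members against control livers and of higher members in Myc-off tumours stayed within 1.5 times under each of them, whereas small counts moved. Higher in Myc tumours than in control livers was 1 member, where 7334 of all 14566 genes tested were. With no filter it was 2 (8444 of 21671 genes), and 0 with median-ratio scaling (6033 of 14566). It was also 2 with array weights (7757 of 14566), without the 8 libraries of low Gapdh (7508 of 14536) and without control ID125322 (7400 of 14551). Higher in MycVD tumours than in control livers were 2 (7161 of all 14566 genes), and 0 with median-ratio scaling (5983 of 14566). There were 4 without the 8 libraries (7170 of 14536) and without control ID125322 (7259 of 14551). With the ID block (7050 of 14566) and with array weights (7257 of 14566) there was 1. Lower in Myc-off than in Myc tumours were 0, where 4072 of all 14566 genes were. It was 1 with quantile normalisation (4140 genes), the ID block (4473), depth as a covariate (3210), array weights (4631) and the ceiling correction (4235). When 1 Myc-off ID was left out it was 0 to 1, where 3503 to 3933 of all genes were lower. Higher in Myc-off tumours than in control livers was 1 (5439 of all 14566 genes), and 4 with no filter (6300 of 21671). It was 3 with array weights (6064 of 14566), and 2 without the 8 libraries (5779 of 14536) and without control ID125322 (5600 of 14551). It was 0 with quantile normalisation (4081 genes), median-ratio scaling (4223), the mean of log2 values (5290) and the ID block (5726). When 1 Myc-off ID was left out it was 0 to 1, where 4679 to 5005 of all genes were higher. Higher in MycVD than in Myc tumours were 5 (6.14% of all genes), and 14 with array weights (12.6% of all genes). They were 11 without the 8 libraries (10.9%) and 8 with quantile normalisation (8.26%). Lower there was 1 (9.69% of all genes), and 3 with array weights (20.1%) and 0 with depth as a covariate (2.92%). It was 2 with a pseudocount of 0.1 (8.69%), quantile normalisation (7.82%) and the ID block (10.2%). It was also 2 without the 8 libraries (16.5%) and without control ID125322 (11.3%). The reversals were Gsta1 in Myc-off tumours against control livers, at -0.0481 (log2) with quantile normalisation, and Gsto1 in MycVD tumours against control livers, at -0.0018 with median-ratio scaling. The causes were not tested. Leaving out control ID125322, MycVD ID134660 or the shallowest Myc-off library was chosen after seeing the data. No paired analysis was possible because the labels give no replicate number that groups share, and no animal ID is in more than 1 group. Depth limits genes under 1 eRPKM, and the 3 Myc-off IDs limit what a missed threshold can show.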
